A study of Homo sapiens with 6 samples.

Results

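The genes described here lie in a pair of runs on the long arm of human chromosome 2. The run from 2q11 held 71 protein-coding genes, from LMAN2L to CCDC138, between 96.7 and 108.9 Mb in the coordinates of the deposited table. The run from 2q14 held 70 genes, from LIMS2 to FMNL2, between 127.6 and 152.6 Mb. Together they made 141 of the 20036 genes of the table. Names that start with any of 12 prefixes (ARHG, COX, KIF, MCM, MRP, ORC, POLR, RND, RPL, SLC, ZEB and ZNF) were left out, which took 15 further genes out of the runs. The runs were selected on measured values: the log2 fold changes of their genes in these same libraries, which were mostly higher in the SHMT2 knockdown than in the control group. All fold changes, calls and counts of calls for these genes are therefore given as a description, with no test.

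The libraries were bulk RNA-seq of PANC-1 cells, a long-established line from a human pancreatic carcinoma. The 3 knockdown libraries came from cells given a lentivirus against SHMT2, the mitochondrial serine hydroxymethyltransferase that passes one-carbon units from serine to folate. The 3 control libraries came from cells given a null virus. Both groups share the cell line and the exposure to a virus. The sources used here do not give the hairpin, the time after infection or whether pools or clones were used. The labels do not say that replicates were separate cultures, so the spread between libraries may be technical. In bulk libraries, fewer cells that express a gene and less of its RNA per cell cannot be told apart.

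SHMT2 had 139, 56 and 101 counts in the knockdown libraries, against 2113, 2284 and 2417 counts in the control libraries. Library totals ran from 16748432 to 19075734 counts in the knockdown group and from 15405884 to 16366452 in the control group. One library of each group stood apart from its partners. The chi-square statistic per gene was 2.47 between knockdown 1 and knockdown 3, and 75 and 76.5 between knockdown 2 and these. It was 2.06 between control 2 and control 3, and 25.4 and 30.4 between control 1 and these. Mitochondrial transcripts took 10.4% of counts in knockdown 2, 4.72% in knockdown 1 and knockdown 3, and from 5.78% to 6.86% in the control group. Of 9 markers of a pancreatic ductal tumour cell, 3 were called higher and 2 lower, and their summed level was 3265 to 4141 CPM in knockdown and 3443 to 4673 CPM in control libraries. Among these, the ductal keratin KRT19 averaged 69.8 CPM in knockdown libraries and 0.152 CPM in control libraries. All 5 acinar markers were at 0. Summed endocrine markers reached 0.0994 CPM in knockdown and 0.38 CPM in control libraries, and immune markers reached 0.55 CPM in knockdown and 0.19 CPM in control libraries. Fibroblast markers summed to 42.1 to 47.5 CPM in knockdown and 78.2 to 92.2 CPM in control libraries, nearly all of it COL1A1, with DCN and FAP at 0. Endothelial markers summed to 5.81 to 7.25 CPM in knockdown and 0.441 to 0.601 CPM in control libraries, nearly all KDR in the knockdown group. Markers of embryonic kidney packaging cells summed to 26.3 to 38.3 CPM in knockdown and 18.9 to 20.5 CPM in control libraries. Among these, LHX1 averaged 18.7 CPM in knockdown and 2.91 CPM in control libraries, PAX2 averaged 12.9 CPM in knockdown and 16.9 CPM in control libraries, NEFM had a single count and NEFL was at 0. The part of these differences in the results for chromosome 2 was not tested.

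The long arm of human chromosome 2 carries the trace of a fusion of a pair of ape chromosomes, which lies between the runs described here. Duplicated blocks around it hold copies of the nucleoporin gene RANBP2, named RGPD. The interleukin-1 receptor genes form a cluster in the run from 2q11, while the genes of the matching ligands form another between the runs. The run from 2q14 holds LCT, the lactase gene of the small intestine, in a block with UBXN4, R3HDM1, ZRANB3 and RAB3GAP1 that is known for recent selection in herding populations.

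Of the 141 members, 88 had enough counts to be fitted, 45 in the run from 2q11 and 43 in the run from 2q14. A gene was called higher or lower where edgeR's quasi-likelihood test over all 12292 fitted genes gave a Benjamini-Hochberg adjusted p below 0.05. In the run from 2q11, 31 of 45 fitted members were called higher, 0 lower and 14 neither. Among the 43 fitted members of the run from 2q14, 27 were called higher, 2 lower and 14 neither. Over all fitted genes 26.7% were called higher and 25.1% lower, and nothing is read from the difference, because the runs were chosen for it. All 3 knockdown libraries lay above all 3 control libraries for 61 of the 88 fitted members, while over all fitted genes this held for 31.3%. For 4 of the 88 the order was the opposite, against 30.2% of all fitted genes, and for the other 23 the groups overlapped.

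The median log2 fold change, knockdown over control, was 0.77 in the run from 2q11, with quartiles of 0.36 and 1.10. It was 0.62 in the run from 2q14, with quartiles of 0.12 and 1.09. On a linear scale the median member was 1.71-fold and 1.53-fold as high in knockdown as in control libraries in these runs. The median over all fitted genes was 0.0030 on the log2 scale. A log2 fold change of at least 1 was found for 17 fitted members of the run from 2q11 and 12 of the run from 2q14, and for 10% of all fitted genes. No fitted member of either run was lower by that much. The lowest values were -0.30 (FAHD2B) in the run from 2q11 and -0.48 (FMNL2) in the run from 2q14.

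**Figure D1:**
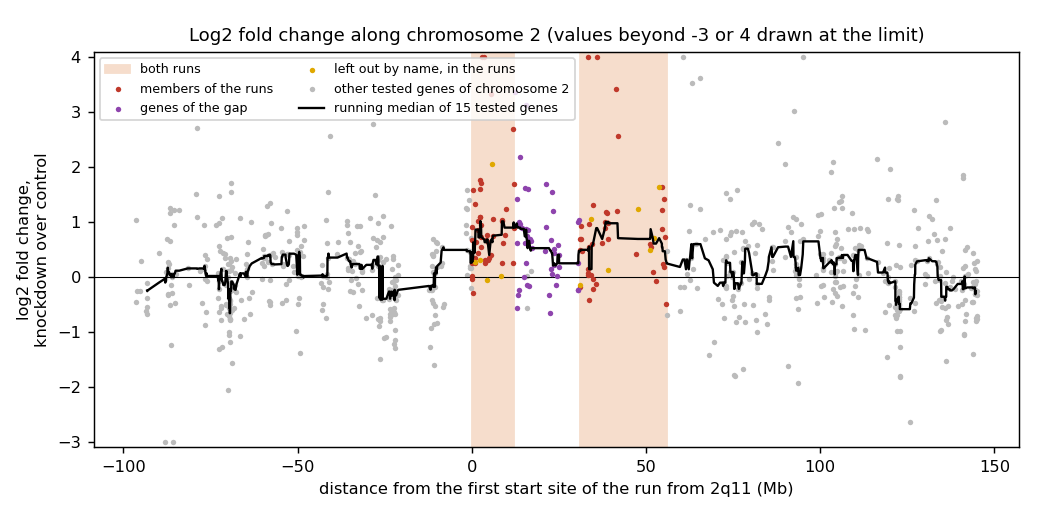
Log2 fold change (knockdown over control) of each fitted gene of chromosome 2 against its distance in Mb from the first start site of the run from 2q11, with a running median of 15 genes and both runs shaded. The running median stays above 0 across both shaded runs and the gap between them, and members of the runs have medians of 0.77 and 0.62.

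The gap between the runs, under the same exclusion of names, was set beside them. It held 76 genes, of which 47 were fitted, and 27 of these were called higher, 3 lower and 17 neither. Their median log2 fold change was 0.58, with quartiles of 0.041 and 0.99. Positive values were found for 95.6% of fitted members of the run from 2q11, 83.7% of the run from 2q14 and 78.7% of fitted genes of the gap, against 50.2% of all fitted genes. Most fitted genes between the runs were thus higher in the knockdown libraries as well. Outside the runs and the gap, the 672 fitted genes of chromosome 2 had a median of 0.059. The 50 fitted genes just before the run from 2q11 had a median of 0.19, with 19 called higher and 10 lower. The 50 fitted genes just after the run from 2q14 had a median of 0.090, with 17 called higher and 12 lower. Shares called higher were 57.4% in the gap, 38% just before and 34% just after the runs, against 26.7% of all fitted genes. Shares called lower were 6.38%, 20% and 24% in the same order, against 25.1%. Chromosome medians over all chromosomes ran from -0.27 on chromosome 22 to 0.28 on chromosome X, and chromosome 2 as a whole stood at 0.16.

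Genes of the gap had values of both signs. BUB1, a kinase of the spindle checkpoint, averaged 313 ± 30.9 CPM in knockdown and 159 ± 29.8 CPM in control libraries (SD, n = 3 each), and ACTR3, a subunit of the actin-branching Arp2/3 complex, averaged 599 ± 8.54 CPM in knockdown and 416 ± 46.03 CPM in control libraries. The RNA helicase DDX18 had a log2 fold change of 0.48 (SE 0.13) and the nucleic acid-binding translin (TSN) 0.40 (SE 0.088). INSIG2, which holds the sterol sensor SCAP in the endoplasmic reticulum, had 38.1, 24.4 and 37.2 CPM in knockdown and 9.76, 9.62 and 11.6 CPM in control libraries, without overlap and with a log2 fold change of 1.69 (SE 0.19). The zinc finger gene ZC3H6 had 3.14 (SE 0.22) and the Golgi membrane protein TMEM87B 1.62 (SE 0.084). STEAP3, a ferrireductase of endosomes, had 68.4, 71.8 and 77.7 CPM in knockdown and 108, 116 and 119 CPM in control libraries, with every knockdown library lower and a log2 fold change of -0.65 (SE 0.09). MALL, a membrane raft protein, had overlapping groups at 53.4 ± 23.1 CPM in knockdown and 66.7 ± 6.48 CPM in control libraries (SD, n = 3 each). INHBB, an activin subunit of the gap, had a log2 fold change of 0.51 (SE 0.16), and its groups overlapped.

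Within the runs the values went up and down. In 4 consecutive blocks of 11 or 12 fitted members, the medians in the run from 2q11 were 0.49 (LMAN2L to INPP4A), 1.09 (COA5 to AFF3), 0.64 (LONRF2 to MFSD9) and 1.01 (TMEM182 to CCDC138). Blocks of 10 or 11 in the run from 2q14 had medians of 0.50 (LIMS2 to CCDC115), 0.55 (IMP4 to CCNT2), 1.01 (RAB3GAP1 to MBD5) and 0.49 (EPC2 to FMNL2). The gap started at the level of the run before it and became lower toward the run after it, with block medians of 0.94, 0.80, 0.53, 0.43 and 0.25 in order of start site. The longest stretch of fitted genes with positive values, genes left out by name among them, held 23 genes from ANKRD36 to NPAS2. The next held 22 genes from TBC1D8 to SEPTIN10, so it crossed the end of the run from 2q11 into the gap. A stretch of 19 genes ran from NCKAP5 to KIF5C in the run from 2q14, 11 genes from RGPD6 to POLR1B lay in the gap, and 9 ran from AMMECR1L to CCDC115.

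The values of the fitted genes next to the limits of the runs were mixed. The first fitted genes inside the run from 2q11 were LMAN2L, CNNM4 and CNNM3, with log2 fold changes of -0.027, 0.90 and 0.26. The genes just before them, NCAPH, ARID5A and KANSL3, had 0.45, 0.16 and 0.70. At its far end, LIMS1, RANBP2 and CCDC138 had 0.26, 1.70 and 0.90 inside, and SH3RF3, SEPTIN10 and SOWAHC had 3.37, 0.63 and -0.57 outside. At the start of the run from 2q14, LIMS2, WDR33 and POLR2D (the last left out by its name) had 0.68, -0.18 and -0.15, and ERCC3, MAP3K2 and IWS1 just before it had -0.24, 0.998 and 1.04. At its far end, CACNB4, STAM2 and FMNL2 had 1.43, 0.72 and -0.48 inside, and ARL6IP6 and NR4A2 had -0.68 and -0.61 outside. At every limit a negative value was found among the 3 fitted genes on one side or the other.

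The values behind the choice of the runs were also taken library by library, as a description, since the runs were chosen on these same libraries. For each fitted member, log2(CPM + 1) in a library was set against the mean of the control libraries, where a control library was set against the other controls. In the run from 2q11 the medians were 0.73, 0.87 and 0.61 in knockdown 1, 2 and 3, against -0.024, -0.013 and 0.044 in control 1, 2 and 3. Members were above the control mean in 44, 38 and 44 of 45 cases in knockdown 1, 2 and 3, and over all fitted genes this held for 50.6%, 49.9% and 51.0%. Medians in the run from 2q14 were 0.64, 0.59 and 0.52 in the knockdown libraries, against 0.081, -0.039 and -0.068 in the control libraries, and members lay above the control mean in 37, 33 and 38 of 43 cases in knockdown 1, 2 and 3. The gap had 0.52, 0.53 and 0.51 in the knockdown libraries, against 0.057, -0.041 and -0.039 in the control libraries. Counts that fell on members of the run from 2q11 made 0.299%, 0.327% and 0.302% of all counts in knockdown libraries, against 0.174%, 0.159% and 0.16% in control libraries. For the run from 2q14 they made 0.317%, 0.301% and 0.316% in knockdown libraries, against 0.225%, 0.209% and 0.208% in control libraries. Without knockdown 2 and control 1, the libraries that stood apart, the median log2 fold change was 0.75 in the run from 2q11, 0.71 in the run from 2q14 and 0.62 in the gap.

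**Figure D2:**
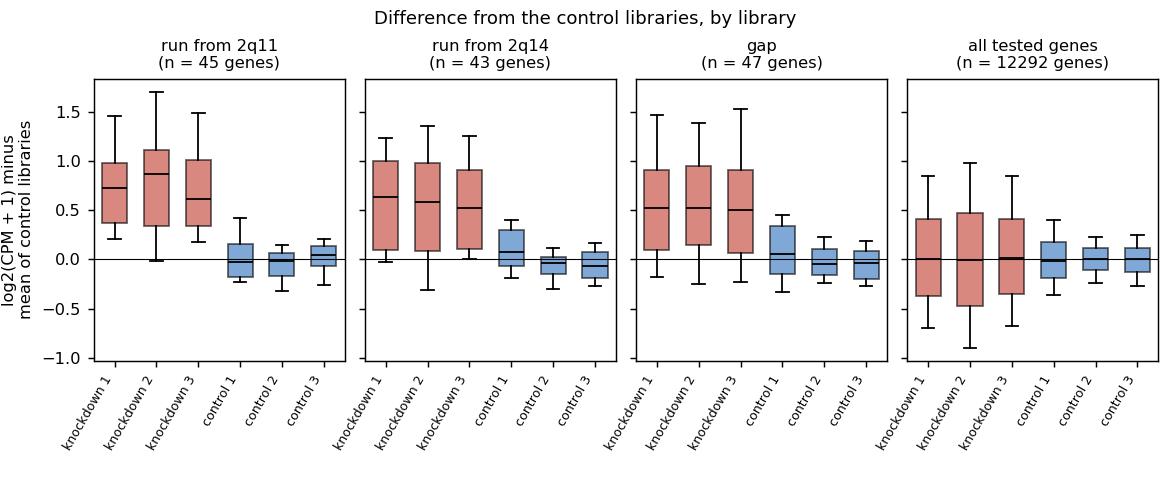
Difference of log2(CPM + 1) from the mean of the control libraries (a control library against the other controls) for each library, over the fitted genes of each run, the gap and all fitted genes; boxes give the quartiles and median and whiskers the 10 to 90 percentile range. Knockdown medians lie at 0.52 or above in both runs, while control medians lie between -0.068 and 0.081.

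Transcription factors, elongation factors and chromatin proteins were found in both runs. NPAS2, a partner of BMAL1 in the circadian clock, had 175, 270.2 and 169 CPM in the knockdown libraries, against 128, 130.3 and 124 CPM in the control libraries. The groups did not overlap, and knockdown 2 was the highest library. The log2 fold change was 0.68 (SE 0.18), and 0.42 without knockdown 2. CCNT2, which with CDK9 forms the elongation factor P-TEFb, averaged 73.2 ± 3.21 CPM in knockdown and 39.4 ± 7.69 CPM in control libraries (SD, n = 3 each), a log2 fold change of 0.89 (SE 0.14). CNOT11, a subunit of the CCR4-NOT deadenylase, had 99.6, 107 and 99.3 CPM in knockdown and 61.8, 67.01 and 67.8 CPM in control libraries, so every knockdown library was above every control library. Its log2 fold change was 0.64 (SE 0.085).

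AFF3, a nuclear protein related to the scaffolds of the super elongation complex, had 53, 37 and 47 counts in the knockdown libraries and 0 counts in each of the control libraries. Taking 3 counts in each control library as the limit, its level was at least 12.7-fold higher in knockdown libraries. It was low in the knockdown group too, at 2.44 ± 0.187 CPM, and it lies outside the rule for named genes and was chosen after its values were seen. With AFF3 placed at this limit the median of the run from 2q11 was 0.77 as before. It could not change, because AFF3 lies above the median either way. SAP130, a subunit of the SIN3 histone deacetylase complex, had 53.1, 87.9 and 51.9 CPM in knockdown and 37.1, 32.8 and 31.6 CPM in control libraries. The groups lay apart, with knockdown 2 highest, and the log2 fold change was 0.92 (SE 0.21), or 0.62 without knockdown 2. MBD5, a partner of the Polycomb deubiquitinase, had a log2 fold change of 0.54 (SE 0.13), and EPC2, a subunit of the NuA4 acetyltransferase, had 0.087 (SE 0.15) with overlapping groups. WDR33, the subunit of the cleavage and polyadenylation factor that reads the poly(A) signal, had 101, 94.9 and 96.6 CPM in knockdown and 108, 113 and 109.6 CPM in control libraries. The groups did not overlap, the knockdown libraries were lower, and the log2 fold change of -0.18 (SE 0.078) was not called.

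Members that act in DNA replication and repair were among the higher ones. RIF1, which directs replication timing and protects broken ends, had 202, 230.3 and 214 CPM in the knockdown libraries, against 129, 75.8 and 73.4 CPM in the control libraries. Control 1 was the highest of its group but still below every knockdown library. Its log2 fold change was 1.22 (SE 0.21), and 1.52 without control 1. ZRANB3, an annealing helicase of stalled forks, had 21.2, 18.7 and 17.5 CPM in knockdown and 9.82, 8.35 and 6.898 CPM in control libraries, without overlap. REV1, a translesion polymerase that inserts cytosine opposite lesions, had 49.8, 51.7 and 51.8 CPM in knockdown and 28.01, 23.8 and 27.7 CPM in control libraries. Its log2 fold change was 0.95 (SE 0.098) and that of ZRANB3 was 1.19 (SE 0.16). REV1, from 99400475 on the minus strand, overlaps the end of EIF5B on the plus strand. Without a stated strand setting their shared reads cannot be told apart.

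RANBP2, the nucleoporin of the cytoplasmic filaments and a SUMO ligase, spans 108719482 to 108785810 on the plus strand of chromosome 2. It had 263, 323 and 277 CPM in the knockdown libraries, against 147, 59.1 and 59.5 CPM in the control libraries. The groups lay apart, and control 1 was far above its partners. The log2 fold change was 1.70 (SE 0.35), and 2.27 without control 1. Its copies are near-identical over long stretches, so reads may have been split between them and their values are uncertain. RGPD3 in the run from 2q11 had a log2 fold change of 1.24 (SE 0.37) at a mean of 2.42 ± 0.814 CPM in knockdown and 1.01 ± 0.397 CPM in control libraries (SD, n = 3 each). In the gap, RGPD5, RGPD6 and RGPD8 had 1.42, 2.19 and 0.88. RGPD4 was not fitted, with 3, 12 and 7 counts in knockdown and 2, 0 and 0 counts in control libraries. Of the 8 genes of this family, 6 were fitted, 4 were called higher and 0 lower, with a median of 1.33. Over all fitted genes 26.7% were called higher and 25.1% lower. Every copy called higher lies in the runs or the gap, so nothing is read from this count. Of the 2 genes outside them, RGPD1 was not fitted and RGPD2 was not called, with a log2 fold change of 0.20 (SE 0.48).

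Translation was represented by an initiation factor and a ribosome assembly factor. EIF5B, the GTPase that joins the ribosomal subunits, spans 99337371 to 99401326 on the plus strand. It had 308, 528 and 315 CPM in the knockdown libraries, against 167, 89.2 and 92.4 CPM in the control libraries. The groups lay apart, with knockdown 2 and control 1 the highest of their groups. The log2 fold change was 1.72 (SE 0.30), and 1.78 without both of these libraries. Per length EIF5B reached 49.7 FPKM in knockdown and 14.4 FPKM in control libraries on average. IMP4, a component of the U3 small nucleolar ribonucleoprotein that processes the precursor of 18S ribosomal RNA, went the other way. It had 81.1, 78.99 and 77.3 CPM in knockdown and 96.7, 103 and 118 CPM in control libraries, without overlap, a log2 fold change of -0.42 (SE 0.097) and a call of lower.

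Members of the secretory pathway and of vesicle traffic made up a further group. GCC2, a golgin that tethers vesicles at the trans-Golgi network, spans 108449107 to 108509415 on the plus strand. It had 51.1, 74.6 and 51.4 CPM in the knockdown libraries, against 11.3, 8.28 and 7.66 CPM in the control libraries, so the lowest knockdown library was above the highest control library. Its log2 fold change was 2.70 (SE 0.21). UGGT1, the glucosyltransferase that senses misfolded glycoproteins, had 263, 288 and 259 CPM in knockdown and 185, 160.5 and 156 CPM in control libraries, a log2 fold change of 0.69 (SE 0.098). TMEM131, which recruits collagen for secretion, had 159.8, 238 and 157 CPM in knockdown and 132, 111 and 115 CPM in control libraries. Its groups lay apart, knockdown 2 was highest, and the log2 fold change was 0.63 (SE 0.17), or 0.40 without knockdown 2. UBXN4, which brings the ATPase p97 to the endoplasmic reticulum, had a log2 fold change of 0.98 (SE 0.16). STAM2, part of the sorting complex that passes ubiquitinated receptors to lysosomes, had 84.2, 86.6 and 83.6 CPM in knockdown and 57.8, 47.5 and 48.5 CPM in control libraries, a log2 fold change of 0.72 (SE 0.10). LMAN2L, a lectin that carries glycoproteins out of the endoplasmic reticulum, had 59.6, 42.7 and 62.2 CPM in knockdown and 48.3, 55.2 and 64.2 CPM in control libraries. Its groups overlapped and its log2 fold change was -0.027 (SE 0.17).

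RAB3GAP1, the catalytic subunit of a complex that acts on RAB3 and RAB18, had 115, 109 and 109 CPM in knockdown and 58.4, 55.6 and 51.8 CPM in control libraries. The libraries of each group lay close together and far from the other group, and the log2 fold change was 1.01 (SE 0.086). TBC1D8, which carries the domain of Rab GTPase activators, had 224, 246 and 219 CPM in knockdown and 139, 132 and 132 CPM in control libraries, a log2 fold change of 0.77 (SE 0.084). PLEKHB2, a phosphoinositide-binding protein of endosomes, had 309.6, 239 and 311 CPM in knockdown and 195, 190.4 and 183 CPM in control libraries, a log2 fold change of 0.60 (SE 0.12). It overlaps POTEE on the same strand, so some of its reads may belong to POTEE. RAB3GAP1 and ZRANB3 overlap on opposite strands, and without a stated strand setting their shared reads cannot be told apart.

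Adhesion, cytoskeleton and kinase signalling gave values of both signs. FHL2, a LIM-only coactivator at adhesions and in the nucleus, had 246, 229 and 263 CPM in the knockdown libraries, against 113, 124 and 129 CPM in the control libraries, and the groups lay far apart. Its log2 fold change was 1.01 (SE 0.095). LIMS1, an adaptor of integrin-linked kinase, had 154, 174 and 151 CPM in knockdown and 130.1, 136 and 134 CPM in control libraries, a log2 fold change of 0.26 (SE 0.088). MAP4K4, a kinase of the Ste20 family, had 156, 204 and 161 CPM in knockdown and 151, 134 and 123 CPM in control libraries. The groups lay apart, and the log2 fold change of 0.35 (SE 0.13) was not called. FMNL2, a formin that elongates actin filaments, had 125, 139.6 and 125 CPM in knockdown and 208, 174 and 164 CPM in control libraries. All 3 knockdown libraries were below all 3 control libraries, with a log2 fold change of -0.48 (SE 0.11) and a call of lower. SEMA4C, a semaphorin, had overlapping groups at 33.3, 28.2 and 35.7 CPM in knockdown and 30.9, 33.7 and 31.3 CPM in control libraries.

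Other members ranged from ubiquitin ligases to nucleic acid-binding proteins. LONRF2, a RING domain ubiquitin ligase, spans 100271875 to 100322501 on the minus strand. It had 40.9, 46.4 and 38.2 CPM in the knockdown libraries, against 1.196, 1.67 and 1.52 CPM in the control libraries. No other member with a mean of at least 5 CPM had as large a log2 fold change, which was 4.83 (SE 0.16). Per length the level was still low, at 2.84 FPKM in knockdown and 0.0939 FPKM in control libraries on average. SPOPL, an adaptor of cullin 3 ligases, had 79.7, 68.7 and 81.3 CPM in knockdown and 35.4, 31.5 and 33.3 CPM in control libraries, a log2 fold change of 1.20 (SE 0.10). R3HDM1, which carries a domain that binds single-stranded nucleic acids, had 120.3, 243 and 125 CPM in knockdown and 82.7, 68.2 and 66.3 CPM in control libraries. Knockdown 2 was far above its partners, and the log2 fold change of 1.17 (SE 0.27) became 0.75 without it. NMI, an interferon-induced partner of STAT and MYC proteins, had 15.2, 23.5 and 16.8 CPM in knockdown and 7.24, 4.54 and 6.01 CPM in control libraries, a log2 fold change of 1.63 (SE 0.23). FAM168B, a membrane protein studied in neurons, had 239, 220.1 and 248 CPM in knockdown and 212, 241 and 237 CPM in control libraries, with overlap and a log2 fold change of 0.034 (SE 0.091).

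**Figure D3:**
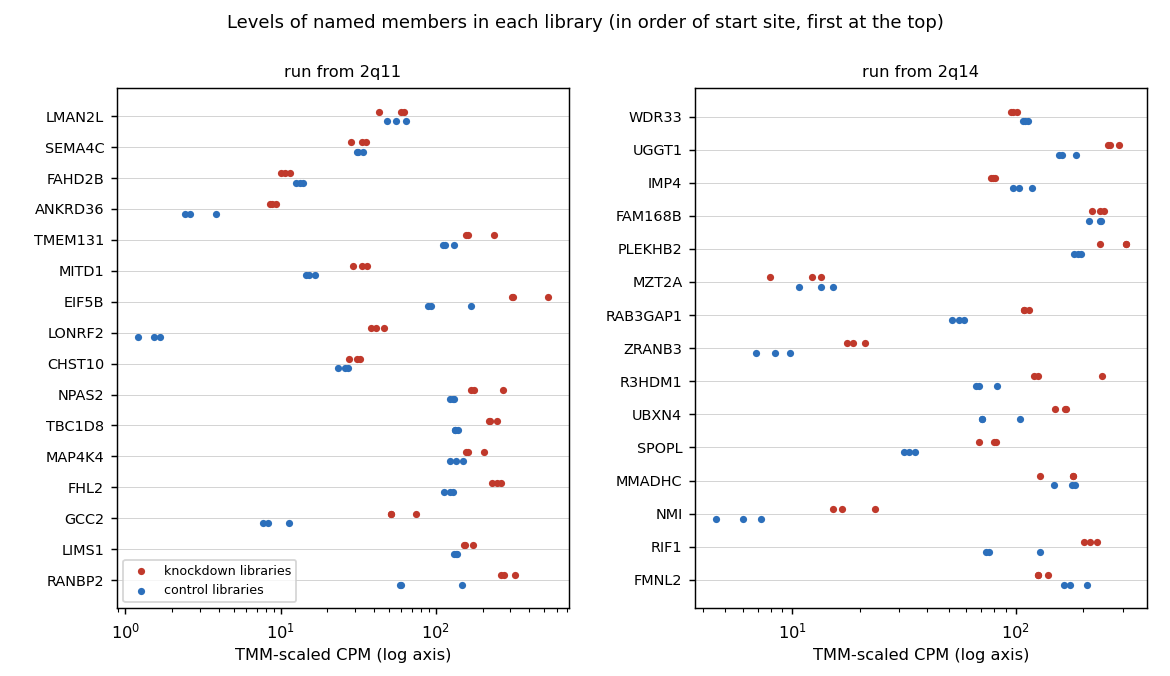
TMM-scaled CPM (log axis) of the members named for their level or for the size of their difference, one row per gene in order of start site, with 3 knockdown libraries (red) drawn above 3 control libraries (blue). The levels of LONRF2, GCC2 and ANKRD36 lie apart without overlap, those of LMAN2L and SEMA4C overlap, and IMP4 and FMNL2 are lower in the knockdown libraries.

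Some members had few or no counts in the control libraries. HNMT, which methylates histamine, had 174, 124 and 147 counts in the knockdown libraries, against 11, 11 and 12 counts in the control libraries. NCKAP5, a microtubule-associated protein, had 63, 71 and 49 counts in knockdown and 0, 1 and 1 counts in control libraries. The ratio of its scaled counts was 76.5, with an exact 95% interval from 20.9 to 636 that covers counting error only. NXPH2, a secreted neurexophilin, had 42, 24 and 50 counts in knockdown and 5, 0 and 11 counts in control libraries, and POTEF, of a family fused to actin, had 40, 56 and 38 counts in knockdown and 2, 2 and 0 counts in control libraries. Reads of POTEF may belong to other POTE copies. These 4 genes, like TSGA10 and LIPT1 below, are outside the rule for named genes and were chosen after their values were seen. ANKRD36, an ankyrin repeat gene with a near-identical copy in ANKRD36B, averaged 8.87 ± 0.404 CPM in knockdown and 2.95 ± 0.777 CPM in control libraries (SD, n = 3 each), a log2 fold change of 1.58 (SE 0.20) that is uncertain for the same reason.

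Not every member was higher. FAHD2B, of the fumarylacetoacetate hydrolase family, had 10.7, 10.02 and 11.5 CPM in knockdown and 12.5, 13.8 and 13.4 CPM in control libraries. The groups lay apart with the knockdown libraries lower, and the log2 fold change of -0.30 (SE 0.12) was not called. MZT2A, a partner of the gamma-tubulin ring with a near copy in MZT2B, had 12.3, 7.94 and 13.5 CPM in knockdown and 10.8, 15.2 and 13.5 CPM in control libraries, with overlap. MMADHC, which sorts vitamin B12 between the cytosol and mitochondria, had 179.6, 128 and 180.2 CPM in knockdown and 148, 179 and 183 CPM in control libraries, a log2 fold change of -0.065 (SE 0.15). Per length it was one of the more abundant members, at 78.2 FPKM in knockdown and 76.8 FPKM in control libraries on average.

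Of the members that were not fitted, 19 had no count in any library and 34 had few. Those with 10 or more counts in some library were ANKRD23, with 6, 4 and 10 counts in knockdown and 2, 3 and 7 counts in control libraries, RGPD4 (above), and a gene without a symbol that had 11, 11 and 8 counts in knockdown and 10, 9 and 5 counts in control libraries. Receptors known from immune cells were in this class. The chemokine receptor CXCR4 had 8, 4 and 5 counts in knockdown and 2, 1 and 1 counts in control libraries, and IL18R1, a receptor chain of interleukin-18, had 9, 4 and 4 counts in knockdown and 0, 1 and 0 counts in control libraries. LCT had 1, 1 and 0 counts in knockdown and 0, 1 and 0 counts in control libraries. These 3 genes were chosen after their counts were seen, and no fold is given at these counts. Genes at 0 in every library had a level below 3 counts per library, which is 0.193 CPM in the control libraries on average.

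The 15 genes of the runs left out by name were compared as well. Of these, 12 were fitted, 5 were called higher and 0 lower, with a median log2 fold change of 0.40. Over all fitted genes 26.7% were called higher and 25.1% lower. Nothing is read from the difference, because these genes lie within runs chosen for higher values. RND3, a small GTP-binding protein without GTPase activity, had 230.1, 257 and 235 CPM in knockdown and 95.1, 67.9 and 67.6 CPM in control libraries. RPL31, of the large ribosomal subunit, had 258, 97.6 and 280.2 CPM in knockdown and 133, 257 and 273 CPM in control libraries, with knockdown 2 and control 1 far below their partners. The replicative helicase subunit MCM6 had a log2 fold change of 0.13 (SE 0.088), and POLR2D, of RNA polymerase II, had -0.15 (SE 0.11).

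Start sites that face away from each other within 1000 bases form head-to-head pairs, which can share a promoter. By the start sites of the deposited table there were 12 such pairs of fitted genes in the runs and the gap. Of these, 2 held a gene left out by name, and in 10 of 12 both genes had the same sign. By the nearest RefSeq start sites, TBC1D8 and CNOT11 lie 101504 bases apart, NIFK and TSN 18776, and ACTR1B and C2orf92 5669. These pairs are thus within 1000 bases only by the table's start sites. Nothing about the pairs is read from that count, because 89.8% of all fitted members and 78.7% of the fitted genes of the gap had positive values. In the run from 2q11, TSGA10 (a sperm tail protein) and LIPT1 (a lipoyltransferase of mitochondria) overlap at their start sites and had 1.61 (SE 0.24) and 1.77 (SE 0.19). TBC1D8 and CNOT11 had start sites 20 bases apart in the deposited table and values of 0.77 and 0.64. MFSD9 and TMEM182, both membrane proteins, were 17 bases apart with 0.75 and 1.05, and ZRANB3 and R3HDM1 in the run from 2q14 were 237 bases apart with 1.19 and 1.17. COA5, an assembly factor of cytochrome c oxidase, and UNC50, a Golgi membrane protein, had 0.86 and 0.44. In the other pairs of the runs, ACTR1B and C2orf92 had 0.25 and 0.36, MITD1 and MRPL30 1.09 and 0.30, and ORC4 and MBD5 0.49 and 0.54.

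The pairs that differed in sign were CCDC115 with IMP4 in the run from 2q14 and SEPTIN10 with SOWAHC in the gap. CCDC115, an assembly factor of the vacuolar proton pump, had 33.5, 23.6 and 32.8 CPM in the knockdown libraries, against 15.2, 14.4 and 16.7 CPM in the control libraries. Its groups lay apart with the knockdown libraries higher, whereas those of IMP4, 178 bases away on the plus strand, lay apart with the knockdown libraries lower. The log2 fold change was 0.96 (SE 0.16) for CCDC115 and -0.42 (SE 0.097) for IMP4, a difference of 1.38. SEPTIN10, a cytoskeletal GTPase, averaged 182 ± 4.53 CPM in knockdown and 118 ± 6.703 CPM in control libraries, and SOWAHC, an ankyrin repeat protein 221 bases away, averaged 58.6 ± 2.54 CPM in knockdown and 86.9 ± 4.18 CPM in control libraries (SD, n = 3 each).

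The bases between the start sites are shown for the 5 pairs whose bases lay within the promoter windows used. CCDC115 and IMP4 are of opposite sign, the other pairs shown have positive values for both genes, and no sequence is shown for SEPTIN10 and SOWAHC. The bases are RefSeq sequence of build GRCh38.p14 on the plus strand, which is the strand of the second gene of each pair, with the minus-strand gene starting to the left. Capitals mark CCAAT (the letters bound by NF-Y) and GGGCGG (the core bound by SP1), searched on both strands, so that ATTGG and CCGCCC are marked as well. TATAAA, the third motif searched, was not found in them.
CCDC115 to IMP4, chr2:130342700-130342876: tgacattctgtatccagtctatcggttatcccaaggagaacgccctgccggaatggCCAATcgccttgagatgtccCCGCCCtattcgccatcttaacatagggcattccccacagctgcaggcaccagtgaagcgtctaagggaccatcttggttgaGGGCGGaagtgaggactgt
COA5 to UNC50, chr2:98608516-98608578: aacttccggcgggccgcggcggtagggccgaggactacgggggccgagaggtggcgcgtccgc
MITD1 to MRPL30, chr2:99181059-99181151: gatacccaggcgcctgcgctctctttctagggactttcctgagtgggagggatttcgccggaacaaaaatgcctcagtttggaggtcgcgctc
MFSD9 to TMEM182, chr2:102736889-102736904: aggaggcgcgcgcctg
C2orf76 to DBI, chr2:119366835-119366923: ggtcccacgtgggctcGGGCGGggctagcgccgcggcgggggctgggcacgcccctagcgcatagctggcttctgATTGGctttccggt

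The 177 bases between CCDC115 and IMP4 held 1 CCAAT and a GGGCGG on each strand. The 89 bases between C2orf76 and DBI, whose values were 0.68 and 0.14, held 1 of each of these motifs. The 63 bases between COA5 and UNC50, the 93 between MITD1 and MRPL30 and the 16 between MFSD9 and TMEM182 held none of them. Pairs of equal sign were thus found with and without these letters. A match of letters is a description and does not show that a factor binds there.

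**Figure D4:**
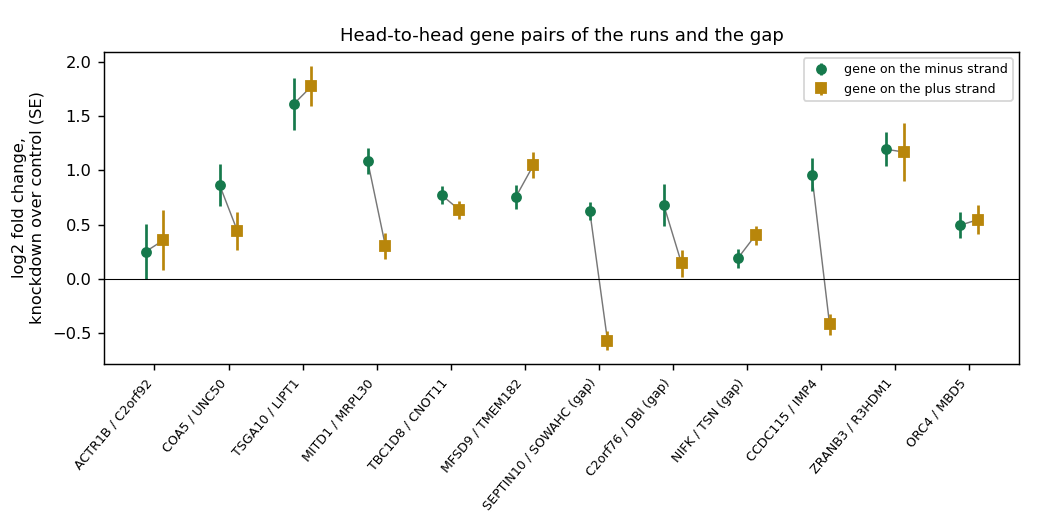
Log2 fold change (knockdown over control) with its standard error for both genes of 12 pairs that are head-to-head by the table's start sites. The minus-strand gene is a circle and the plus-strand gene a square. The genes of CCDC115 / IMP4 (0.96 and -0.42) and SEPTIN10 / SOWAHC (0.63 and -0.57) lie on opposite sides of 0.

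The sequences before the start sites of LONRF2 and FMNL2 are shown as well, because these genes had the highest and the lowest log2 fold change among fitted members with a mean of at least 5 CPM. Each is the 250 bases before the start site, 5′ to 3′ on the strand of the gene, from RefSeq build GRCh38.p14, and GGGCGG is in capitals.
LONRF2, chr2:100322502-100322751, minus strand: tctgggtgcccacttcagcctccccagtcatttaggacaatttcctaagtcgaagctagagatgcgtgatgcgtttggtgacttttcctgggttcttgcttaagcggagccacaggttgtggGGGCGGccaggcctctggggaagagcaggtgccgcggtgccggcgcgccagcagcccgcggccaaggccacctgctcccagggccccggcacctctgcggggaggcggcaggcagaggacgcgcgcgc
FMNL2, chr2:152334924-152335173, plus strand: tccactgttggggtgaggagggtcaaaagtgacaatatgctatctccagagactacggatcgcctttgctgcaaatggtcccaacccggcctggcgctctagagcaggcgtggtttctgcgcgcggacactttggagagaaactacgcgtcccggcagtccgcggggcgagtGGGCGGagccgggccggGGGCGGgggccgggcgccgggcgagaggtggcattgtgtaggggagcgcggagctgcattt

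Both windows held GGGCGG and neither held CCAAT or TATAAA. Promoter windows from RefSeq were matched for 78 of the 88 fitted members, 44 of 47 fitted genes of the gap and 9994 of all fitted genes. GGGCGG was found on either strand in 67.9% of the matched windows of members, 70.5% of the gap and 68.7% of all. CCAAT was found in 41.0% of members, 29.5% of the gap and 35.2% of all, and TATAAA in 5.13%, 0% and 5.10% in the same order. Median GC content was 66.2% in members, 70.0% in the gap and 65.2% in all. The ratio of observed to expected CpG was 0.84, 0.87 and 0.83.

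The difference varied with the length of a gene and with its level. All fitted genes were divided into 3 classes of about equal size by the table's gene length, at 4161 and 7143 bases. The median log2 fold change in the run from 2q11 was 0.59 in short, 0.77 in middle and 1.41 in long genes. It was -0.038, 0.61 and 0.69 in these classes of the run from 2q14, and in the gap 0.17, 0.64 and 0.74. Over all fitted genes the length classes had medians of -0.15, -0.0049 and 0.17, so genes of greater table length were higher across the genome too. When the median of all fitted genes in the same of 10 length classes was taken off each value, an alternative chosen after seeing the data, the medians were 0.76 in the run from 2q11, 0.55 in the run from 2q14 and 0.56 in the gap. By control level, with limits at 2.32 and 9.38 FPKM, the medians in the run from 2q11 were 1.29 in low, 0.63 in middle and 0.55 in high genes. They were 0.87, 0.67 and 0.27 in the run from 2q14, against 0.30, 0.017 and -0.22 over all fitted genes. The part of length, level or the libraries that stood apart in the pattern was not tested.

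**Figure D5:**
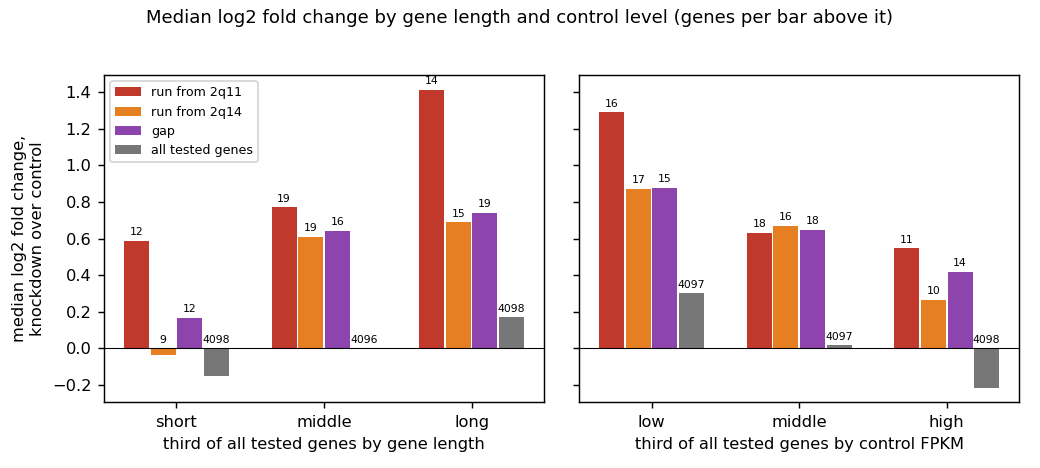
Median log2 fold change (knockdown over control) of the fitted genes of each run, the gap and all genes. Genes are in 3 classes of about equal size over all fitted genes, by the table's gene length (left) and control FPKM (right). The number of genes stands above each bar. Bars of the runs lie above those of all fitted genes in each class, and short genes of the run from 2q14 have a median of -0.038.

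Members of either strand had similar medians. Fitted members on the plus strand had a median log2 fold change of 0.69 and those on the minus strand 0.71. The 28 fitted members that overlap another gene of the table had a median of 0.70, and the others had 0.69. The median control level was 4.14 FPKM in the run from 2q11, 3.37 FPKM in the run from 2q14 and 4.24 FPKM in the gap, against 4.81 FPKM over all fitted genes. Knockdown 2 was above the mean of its partners by at least 0.5 in log2(CPM + 1) for 12 of 88 fitted members (13.6%, against 5.80% of all fitted genes), EIF5B, R3HDM1, SAP130, NPAS2 and TMEM131 among them. Control 1 was above its partners by as much for 7 of 88 (7.95%, against 6.63%), RANBP2, EIF5B and RIF1 among them.

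Pathways with members in the runs or the gap were then followed to genes elsewhere in the genome, whose values the choice of the runs did not use. The lists were, however, chosen with earlier results of these data known. Most called genes named elsewhere are those of smallest adjusted p, so their p-values are no test of a list. Adjusted p-values for these are from edgeR's quasi-likelihood test with Benjamini-Hochberg adjustment over all 12292 fitted genes, and for each gene given with one, all 3 knockdown libraries lay on the same side of all 3 control libraries. The counts of calls and medians below are for the genes of each list outside the runs and the gap, and stand beside 26.7% called higher and 25.1% called lower of all fitted genes. In the interleukin-1 family, 14 of 15 such genes were fitted, 7 were called higher and 3 lower, with a median log2 fold change of 0.31. IL1RL1, the receptor of interleukin-33 in the run from 2q11, had 136, 99 and 105 counts in knockdown and 11, 6 and 11 counts in control libraries, and overlaps IL18R1 on the same strand. The signalling receptor IL1R1 had 22.4, 32.3 and 19.3 CPM in knockdown and 19.6, 17.7 and 18.6 CPM in control libraries, which overlapped. Its partner IL1RAP on chromosome 3 averaged 12.6 ± 1.63 CPM in knockdown and 3.29 ± 0.583 CPM in control libraries (SD, n = 3 each), a log2 fold change of 1.93 (SE 0.18, adjusted p = 0.000158). The ligase TRAF6 had 1.23 (SE 0.13, adjusted p = 0.000267), the kinase IRAK4 0.98 (SE 0.093, adjusted p = 0.000176) and the kinase IRAK1 -0.76 (SE 0.11, adjusted p = 0.00122). No ligand gene of the cluster in the gap was fitted.

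In translesion synthesis and replication stress, all 10 such genes were fitted, 5 were called higher and 1 lower, with a median of 0.35. The helicase-like HLTF averaged 230.4 ± 33.9 CPM in knockdown and 94.3 ± 36.5 CPM in control libraries (SD, n = 3 each), a log2 fold change of 1.29 (SE 0.25, adjusted p = 0.00415). Polymerase iota (POLI) had 1.04 (SE 0.20, adjusted p = 0.00365) and polymerase kappa (POLK) had 1.05 (SE 0.23, adjusted p = 0.00636). The sliding clamp PCNA was the member called lower, with -0.34 (SE 0.11, adjusted p = 0.0305), and is named after its value was seen. Of 10 fitted genes of activin and BMP receptors and ligands, 6 were called higher and 0 lower, with a median of 0.36. ACVR2A, the activin receptor of the run from 2q14, had 12.4, 11.8 and 11.03 CPM in knockdown and 9.32, 6.41 and 7.34 CPM in control libraries, a log2 fold change of 0.61 (SE 0.16). INHBA, an activin subunit on chromosome 7, had 102, 76 and 95 counts in knockdown and 5, 10 and 5 counts in control libraries, a log2 fold change of 3.48 (SE 0.28, adjusted p = 8.24e-05).

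Glycan and proteoglycan enzymes had 10 of 13 genes fitted outside the runs, 3 called higher and 2 lower, with a median of -0.20. Those in the runs were UXS1, which makes UDP-xylose, with 0.77 (SE 0.098), the heparan sulfate sulfotransferase HS6ST1 with 0.47 (SE 0.11), the branching enzyme MGAT5 with 0.62 (SE 0.089), and the HNK-1 sulfotransferase CHST10 with 0.25 (SE 0.11), besides UGGT1. Elsewhere, the heparan sulfate polymerase subunits EXT1 and EXT2 were called higher with 0.39 (SE 0.091, adjusted p = 0.00832) and 0.38 (SE 0.082, adjusted p = 0.00651). UGGT2, the paralog of UGGT1, was called higher with 0.69 (SE 0.17, adjusted p = 0.0117), and the heparan sulfate sulfotransferase NDST1 was called lower with -0.54 (SE 0.099, adjusted p = 0.00308). Of 6 genes around RAB3GAP and RAB18, 3 were called higher and 0 lower, with a median of 0.18, and RAB3GAP2 on chromosome 1 had 0.67 (SE 0.12, adjusted p = 0.00252). Of 14 genes of CCR4-NOT and P-TEFb, 4 were called higher and 4 lower, with a median of 0.26. Cyclin T1 (CCNT1) had 0.49 (SE 0.084, adjusted p = 0.00222). CDK9, the kinase of P-TEFb, was called lower with -0.51 (SE 0.11, adjusted p = 0.00758). HEXIM1 was called lower with -0.33 (SE 0.084, adjusted p = 0.0136). LARP7 was called higher with 0.68 (SE 0.22), and its groups overlapped. CDK9, HEXIM1 and LARP7 are named after their values were seen. The deadenylase CNOT7 averaged 75.2 ± 4.61 CPM in knockdown and 144 ± 10.6 CPM in control libraries (SD, n = 3 each), a log2 fold change of -0.94 (SE 0.095, adjusted p = 0.000226).

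The remaining lists were those of chromatin complexes, vitamin B12 and tryptophan breakdown. Of 13 genes of the Polycomb deubiquitinase, NuA4 and SIN3, 1 was called higher and 2 lower, with a median of 0.029. BAP1, the deubiquitinase itself, had -0.84 (SE 0.12, adjusted p = 0.00113), and its partner ASXL1 had 0.62 (SE 0.075, adjusted p = 0.000489). Of 11 fitted genes of cobalamin trafficking, 2 were called higher and 2 lower, with a median of -0.19. MMACHC, which takes up and trims the vitamin in the cytosol, had -1.04 (SE 0.12, adjusted p = 0.000397), and the mitochondrial chaperone MMAA had 1.20 (SE 0.21, adjusted p = 0.0026). In the kynurenine pathway, 6 of 11 genes were fitted, 3 were called higher and 1 lower, with a median of 0.28. The gene called lower was AFMID, the kynurenine formamidase, with -0.76 (SE 0.12, adjusted p = 0.00136). KYNU, the kynureninase of the run from 2q14, had 5, 5 and 1 counts in knockdown and 0, 0 and 0 counts in control libraries and was not fitted. KMO on chromosome 1, the hydroxylase before it in the pathway, averaged 5.93 ± 0.407 CPM in knockdown and 0.299 ± 0.0279 CPM in control libraries (SD, n = 3 each), a log2 fold change of 4.27 (SE 0.22, adjusted p = 1.39e-05).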

How the data were processed

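RNA-seq of PANC-1 cells was available as 3 SHMT2 knockdown and 3 control virus libraries, grouped by sample titles and the series design. Per the labels' protocols, TRIzol was used for RNA and the NEBNext Ultra II kit for libraries. The deposited table gives counts and FPKM for each gene, per the file headers. Aligner, counter, build, annotation and strandedness: not given in the sources used here. FPKM can be recomputed here from count, gene length and library total. All 141 members were found in GENCODE 29, and 81.6% had the same start or end there, so coordinates are printed as in the table. Counts were filtered with filterByExpr, scaled with TMM and fitted with edgeR 4.0.16 (quasi-likelihood, R 4.3.3) over all 12292 genes that passed, without covariates; the biological coefficient of variation was 14.2%. The call threshold was a Benjamini-Hochberg adjusted p below 0.05. Standard errors follow from the F statistic of each log2 fold change. Levels are CPM on TMM-scaled totals, and library-wise differences use a pseudocount of 1 CPM. Intervals and floors cover counting error only. Steps were tested on simulated data. Alternatives used DESeq2 1.42.0, limma 3.58.1, other scalings, other filters, a stricter threshold, a replicate block and libraries left out.

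Members and gene lists were chosen with earlier results of these data known. Genes named per run are the 8 of highest mean CPM and, at a mean of at least 5 CPM, the 6 of largest and 4 of smallest log2 fold change. The 3 fitted genes on each side of each limit and list members in the runs are named too. Per list, up to 4 called members elsewhere are named, those of smallest adjusted p. For the gap, the genes named are the 5 of highest mean CPM, the 3 of largest and 3 of smallest log2 fold change, and list members. Of untested members those with at least 10 counts in a library are named, and of genes left out by name the 4 of highest mean CPM. Some genes that this rule names are not reported here.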

Additional observations from a re-analysis of the deposited data

How the results depend on the processing

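Of 115 named genes under the alternative settings, 0 changed sign; in 1839 gene and setting combinations, 50 moved by more than the spread between replicates. On log2(FPKM + 1) with limma, the medians were 0.59 in the run from 2q11, 0.45 in the run from 2q14 and 0.45 in the gap, where the pseudocount shrinks low genes by construction. With library size alone, the median of the gap was 0.66 and that of all fitted genes 0.086. Calls over all genes were then 3766 higher and 2491 lower, and 3727 higher and 2536 lower on log2(FPKM + 1), against 3284 higher and 3088 lower with TMM. Leaving out 1 library at a time gave medians of 0.75 to 0.80 in the run from 2q11, 0.59 to 0.67 in the run from 2q14 and 0.49 to 0.62 in the gap. Members called higher then numbered 25 to 32 in the run from 2q11 and 23 to 27 in the run from 2q14, and 24 to 28 genes of the gap were called higher. Calls over all genes numbered 4748 to 6784. Without knockdown 2 and control 1 together, calls of higher were 38 in the run from 2q11, 30 in the run from 2q14 and 32 in the gap. Calls of lower were 1, 4 and 7 in the same order. Over all genes 9135 were then called, 4576 higher and 4559 lower. At an adjusted p below 0.01, 4166 genes were called, 2143 higher and 2023 lower. Same-numbered libraries had correlations of -0.39, -0.37 and 0.41 between their deviations. The highest correlation, 0.519, was between knockdown 2 and control 1, the libraries that stood apart. Deviations from a group mean depend on each other, and these libraries weigh on all of them. The correlations therefore cannot show whether the numbers pair the samples. With a replicate block, 5444 genes were called (2834 higher, 2610 lower), 28 members higher in the run from 2q11 and 26 higher and 2 lower in the run from 2q14. The cause of these shifts was not tested. Depth limits the members that were not fitted, for which no difference is given.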
